A study of Homo sapiens with 18 samples.

Results

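The comparison sets U251 glioblastoma cells at 48 h after MPS1 silencing against the same cells at 24 h. Over that interval many mitotic and kinetochore genes fell, called rises outnumbered called falls among sterol, lysosomal and tRNA synthetase genes, and 331 of 1910 called changes differed by test from those of both kinds of control cells. U251 is an established human glioblastoma line, and MPS1 is the product of TTK. The arrays described are the 4 of cells given siRNA against MPS1 (siMPS1), 2 taken at 48 h and 2 at 24 h, out of 18 arrays in all. They were chosen by their labelled treatment and time. The same interval was read from 4 arrays of cells that received a negative-control siRNA (siNeg) and 4 of untransfected cells (Control), again 2 at each time. The 6 arrays taken at 6 h entered the fit but no comparison here. The transfected cells received 2 pmol of siRNA per the labels, the Control cells none, and all groups were the same line. All are one tumour line in culture. Nothing in the labels tells separate cultures from repeats of one culture within a group, so p-values measure only the spread between arrays, which may be technical.

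MPS1 is a protein kinase that acts at kinetochores, the protein assemblies that attach chromosomes to the spindle. It recruits the checkpoint proteins that hold a cell in mitosis until every chromosome is attached. Cells that lose the checkpoint leave mitosis with chromosomes missegregated. The transcription of most mitotic genes is tied to the cell cycle: it is held low in resting and early cycling cells by the DREAM complex and raised late in the cycle by the B-MYB and FOXM1 complexes, both of which act through the promoter element called CHR (cell cycle genes homology region), commonly beside CCAAT boxes bound by NF-Y.

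Expression was measured on oligonucleotide arrays. Levels are log2 signals, that is log2 of the deposited MAS5 signal plus a pseudocount of 3, and changes are differences of log2 signals, 48 h minus 24 h. One probe set, the brightest, stood for each of 7828 genes, and genes were called where limma's p, adjusted over all of them after Benjamini and Hochberg, was under 0.05. A change is termed specific when it was called in siMPS1 cells and the difference between the siMPS1 change and the change of siNeg cells, and likewise of Control cells, was also called in the same direction. A change is termed shared when it was called in the same direction in siMPS1, siNeg and Control cells, which have no arrays in common. Errors are standard errors (SE) of the fit, and n = 2 arrays for every group.

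The 18 arrays had deposited medians between 4.30 and 4.56, and replicate arrays correlated between 0.983 and 0.990. The beta-actin and GAPDH control probe sets set the 2 siMPS1 48 h arrays apart. The log2 difference between the 3′ and the 5′ probe set of beta-actin, which widens as RNA or its labelled copy shortens, was 0.87 and 0.92 on the siMPS1 48 h arrays, against 0.42 and 0.42 on the siMPS1 24 h arrays. It was 0.10 and 0.14 in siNeg cells at 48 h, against 0.41 and 0.40 at 24 h, and 0.17 and 0.24 in Control cells at 48 h, against 0.33 and 0.28 at 24 h. For GAPDH it was 0.29 and 0.30 in siMPS1 cells at 48 h, against 0.09 and 0.09 at 24 h. The 18S ribosomal RNA probe set read 10.86 and 10.99 in siMPS1 cells at 48 h, against 9.98 and 9.99 at 24 h, and 8.55 and 8.70 in siNeg cells at 48 h, against 10.95 and 10.92 at 24 h. Both siMPS1 48 h arrays carry the wider 3′ to 5′ differences. This difference in RNA therefore cannot be told apart from the group, and it applies to every specific change below. The siNeg 48 h arrays had the lowest 18S values of all arrays, while siMPS1 cells at 48 h were near siNeg cells at 24 h. An added control transcript, dap, was also lowest on the siNeg 48 h arrays, at 6.395 and 6.714, against 8.235 and 8.232 in siNeg cells at 24 h. This too cannot be told apart from the group and applies to every difference from siNeg. Markers were set against the median of the brightest probe sets of all genes, dim ones included (5.22). Of the glial and stem markers, VIM, CD44, NES, SOX2, SOX9 and FABP7 were above that median. SLC1A3 was above it in siMPS1 cells, at 5.73 at 48 h and 5.75 at 24 h. GFAP was at 3.64 in siMPS1 cells at 48 h and 2.92 at 24 h, and S100B and AQP4 were among the dim probe sets. All blood markers with a probe set lay below that median. Of the neuronal markers NEFL was above it, at 10.7 in siMPS1 cells at 48 h and 10.6 at 24 h. Of the epithelial markers KRT18 (9.72 and 9.43) and KRT8 (8.07 and 7.02) were above it. The other neuronal and epithelial markers with a probe set lay below it.

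**Figure D1:**
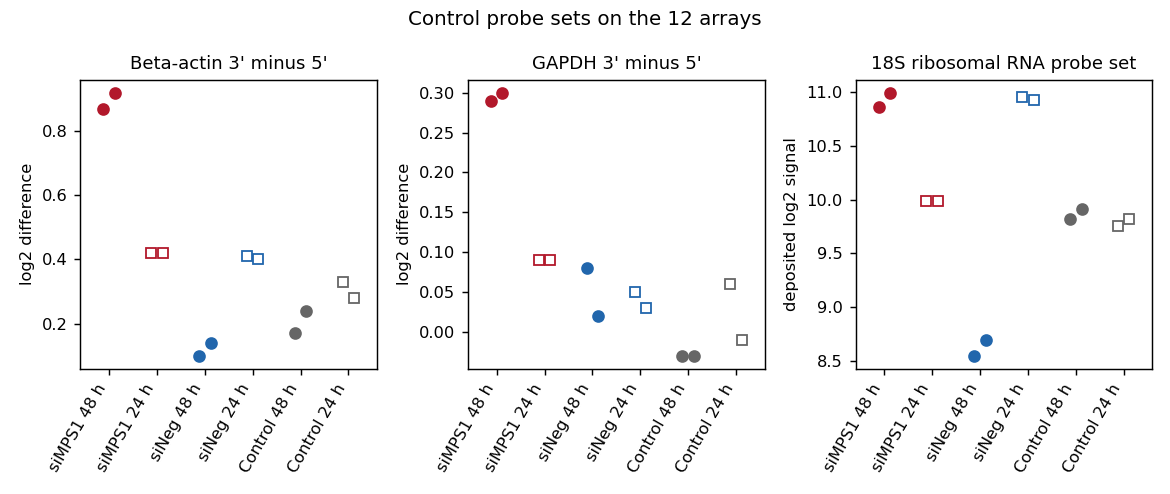
Control probe sets on the 12 arrays of 48 and 24 h. The left and middle panels show the log2 difference between the 3′ and 5′ probe sets of beta-actin and GAPDH, the right panel the deposited log2 signal of an 18S ribosomal RNA probe set. Each point is an array, filled at 48 h and open at 24 h. The beta-actin differences of 0.87 and 0.92 and the GAPDH differences of 0.29 and 0.30 on the siMPS1 48 h arrays lie above those of all other arrays shown.

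TTK itself was already low at 24 h and was not called over the interval. Its log2 signals were 4.78 and 4.26 in siMPS1 cells at 48 h, against 5.23 and 4.74 at 24 h. In siNeg cells they were 6.72 and 6.92 at 48 h, against 6.86 and 6.89 at 24 h, and in Control cells 6.57 and 6.91 at 48 h, against 7.13 and 6.81 at 24 h. All 4 siMPS1 arrays therefore lay below all 8 control arrays, which checks the labels, and the siMPS1 arrays of 48 h and 24 h overlapped. The siMPS1 change was -0.47 (SE 0.21, limma adjusted p = 0.106), and its difference from the siNeg change (adjusted p = 0.379) and from the Control change (adjusted p = 0.643) was not called either. Without siMPS1 48 h replicate 1 it was -0.729 (adjusted p = 0.0392) and without siMPS1 24 h replicate 2 it was -0.713 (adjusted p = 0.0443), so the call rests on single arrays.

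Over the interval 1910 of 7828 genes (24.4%) were called in siMPS1 cells, 986 higher at 48 h (12.6%) and 924 lower (11.8%). In siNeg cells 2287 genes (29.2%) were called, 1067 higher (13.6%) and 1220 lower (15.6%), and in Control cells 1533 (19.6%), 626 higher (8.0%) and 907 lower (11.6%). Every treatment thus had many called genes over the same interval. Of the 1910 genes called in siMPS1 cells, 52 rose and 30 fell by at least 2-fold. The siMPS1 change differed from the siNeg change for 1234 genes (15.8%), 699 higher (8.93%) and 535 lower (6.83%). It differed from the Control change for 1136 genes (14.5%), 703 higher (8.98%) and 433 lower (5.53%). Of the 1910 genes, 331 met both tests in the direction of the change and were specific (4.23% of the genes tested), 173 as rises (2.21%) and 158 as falls (2.02%). Another 220 differed that way from siNeg cells alone and 342 from Control cells alone, and 1017 differed from neither. A count of genes called in siMPS1 cells and in neither control gives 807, but only 164 of these 807 were specific, since a missed call in a control is not a test of a difference. Without siMPS1 48 h replicate 2 the calls in siMPS1 cells numbered 1168 and the specific genes 192.

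The split of specific genes by direction depends on the scaling of the arrays. With the arrays centred on their medians there were 118 specific rises and 206 specific falls, against 155 and 159 after quantile normalization and 173 and 158 without further scaling. Centring also turned the Control calls to 1277 higher and 454 lower, the differences from Control to 416 higher and 806 lower, and the shared genes to 156 higher and 120 lower. The median change over all genes moved by little, to 0.01 in siMPS1 cells and 0.07 in Control cells after centring, against 0.01 and -0.05 without it.

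**Figure D2:**
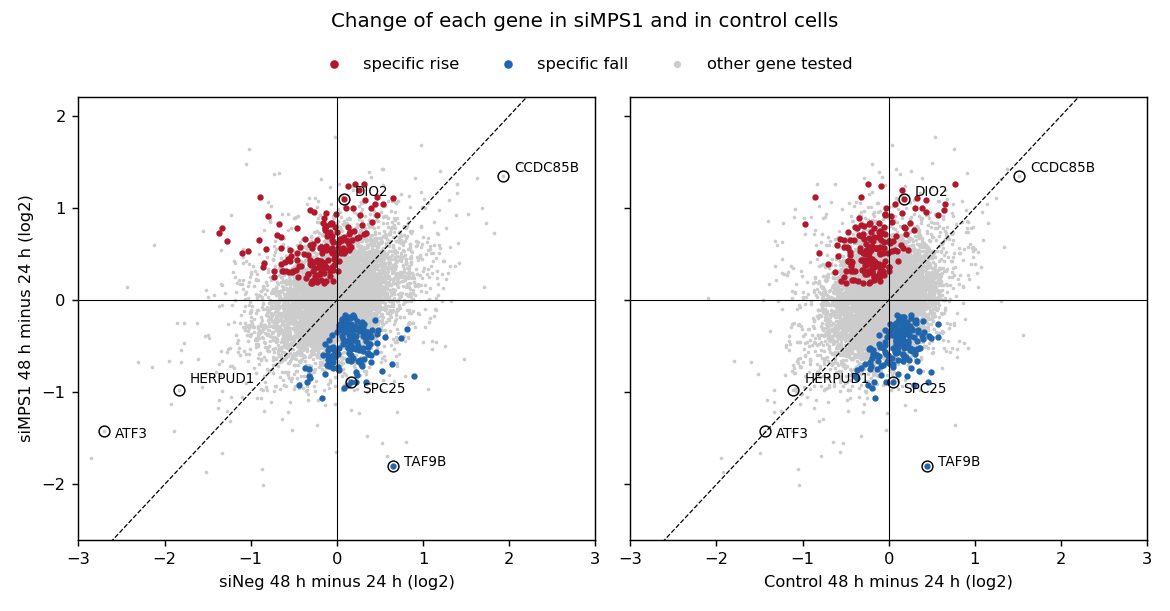
Change of each of the 7828 genes in siMPS1 cells (vertical axis, log2, 48 h minus 24 h) against its change in siNeg cells (left) and Control cells (right). Each point is a gene, red for the 173 specific rises and blue for the 158 specific falls, and the dashed line marks equal changes. TAF9B, SPC25 and DIO2 lie far from the line. ATF3, HERPUD1 and CCDC85B moved the same way in all treatments, but ATF3 and HERPUD1 fell more in siNeg cells by test and lie off the line in the left panel.

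For each specific gene both siMPS1 48 h arrays lay beyond both siMPS1 24 h arrays, as they did for 59.1% of all genes. The specific genes moved past the control arrays in differing ways, which is a description because the same arrays define the set. Of the 173 specific rises, 158 were above all 4 control arrays at 48 h and 89 were below all 4 at 24 h. For 75 of them (43.4%) both held, so that siMPS1 cells crossed from below to above, as against 2.52% of all genes. Of the 158 specific falls, 144 were below all 4 control arrays at 48 h, 76 were above all 4 at 24 h, and 62 (39.2%) did both, against 1.85% of all genes.

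**Figure D3:**
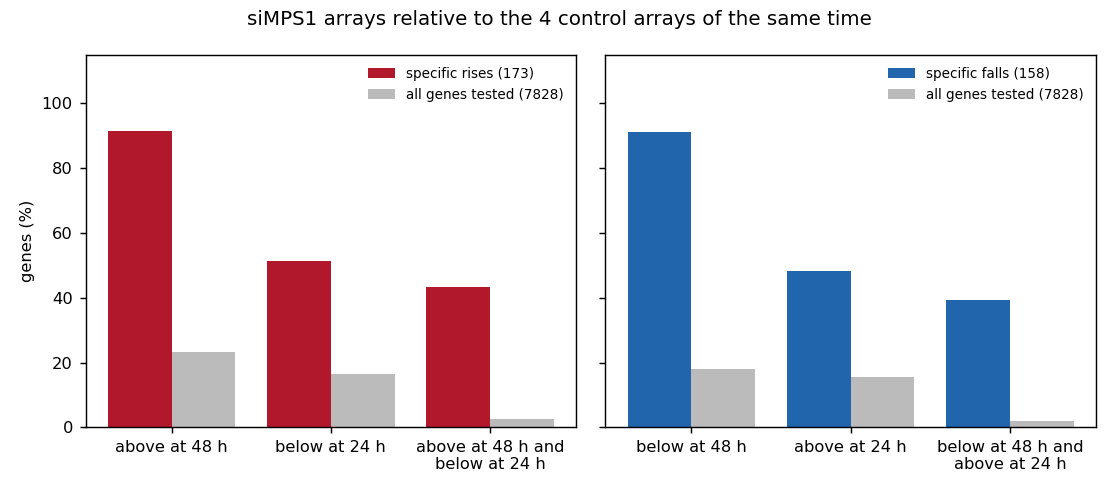
Share of genes (%) in which both siMPS1 arrays lay above or below all 4 control arrays of the same time. Coloured bars are the 173 specific rises (left) and 158 specific falls (right), and grey bars all 7828 genes. In 43.4% of the rises and 39.2% of the falls the siMPS1 arrays lay on opposite sides of the control arrays at the 2 times.

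The largest specific fall was that of TAF9B, which encodes a subunit shared by TFIID-type transcription complexes. Its log2 signals were 4.80 and 4.83 in siMPS1 cells at 48 h, against 6.70 and 6.52 at 24 h. In siNeg cells they were 6.99 and 7.22 at 48 h, against 6.50 and 6.41 at 24 h, and in Control cells 6.81 and 6.73 at 48 h, against 6.36 and 6.29 at 24 h. The siMPS1 arrays were thus the highest at 24 h and the lowest at 48 h, with no overlap. The change was -1.80 (SE 0.12, limma adjusted p = 1.97e-08), and it was 2.45 below that in siNeg cells (adjusted p = 3.57e-08). The other TAF9B probe sets, which are dimmer, changed by -0.44 and -0.33 and were not called. A match between TAF9B and the siRNA, whose sequence the labels do not give, was not tested.

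Among the largest specific falls there were also regulators of growth and cell surface proteins. BTG3, an antiproliferative protein of the BTG/Tob family, fell by 0.89 (SE 0.06, limma adjusted p = 4.44e-08), and its next brightest probe set fell by 1.01. CNTN1, the neural adhesion molecule contactin, fell by 0.82 in siMPS1 cells, while siNeg cells raised it by 0.90 (adjusted p = 4.75e-05). CNTN1 read 6.19 and 5.90 in siMPS1 cells at 48 h, against 6.79 and 6.94 at 24 h. In siNeg cells CNTN1 read 7.31 and 7.26 at 48 h, against 6.48 and 6.31 at 24 h, so the groups changed places. TMEM230, a membrane protein of vesicle trafficking, fell by 0.89 in siMPS1 cells and was raised by 0.33 in siNeg and 0.46 in Control cells, each called. WWC3, a scaffold of the KIBRA family, fell by 0.92, and NTM, an adhesion molecule of neurons, fell by 0.95. NHLRC2 fell by 1.06 and THAP10, which encodes a zinc finger protein of the THAP family, fell by 0.82. The differences of NHLRC2, NTM, WWC3 and THAP10 from one or both controls were lost when single arrays were left out. SPC25 and ASPM complete these 10 and belong with the mitotic genes below.

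The largest specific rises joined immune, cytoskeletal and metabolic genes. IL7R, the interleukin-7 receptor chain, read 7.90 and 7.97 in siMPS1 cells at 48 h, against 6.75 and 6.60 at 24 h. In Control cells IL7R read 8.06 and 8.10 at 48 h, against 7.29 and 7.31 at 24 h. Its rise of 1.26 (SE 0.11, limma adjusted p = 4.37e-07) thus started below the control arrays and ended between those of siNeg and Control cells. The difference from Control (0.49, limma adjusted p = 0.0393) was lost under 13 of 22 alternatives. Among them were quantile normalization, median centring and leaving out any 1 of the Control arrays. DIO2, the deiodinase that activates thyroid hormone, read 8.94 and 8.81 in siMPS1 cells at 48 h, against 7.76 and 7.81 at 24 h, while the 8 control arrays lay between 7.22 and 7.44. DIO2 was above every control array at both times and rose by a further 1.09 (SE 0.08, adjusted p = 1.11e-07). A second DIO2 probe set rose by 0.46, with no difference called against siNeg.

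MVP, the main protein of vault particles, rose by 1.2 (SE 0.12, limma adjusted p = 2.82e-06). It read 7.07 and 7.20 in siMPS1 cells at 48 h, against 5.91 and 5.96 at 24 h, and lay between 6.58 and 6.99 on the 8 control arrays, so that the siMPS1 arrays were lowest at 24 h and highest at 48 h. The same crossing was seen in PYGB, a glycogen phosphorylase, with a rise of 1.10, and MAP2K2, the kinase MEK2, with a rise of 1.04. It was also seen in TUBA1A, an alpha-tubulin, with a rise of 1.08, in TAPBP, the tapasin of MHC class I loading, with a rise of 1.11, and in KRT8, a simple epithelial keratin, with a rise of 1.04. WBP2, a WW-domain-binding adaptor, rose by 1.26 and GPRC5A, an orphan receptor induced by retinoic acid, by 1.0, both ending above the control arrays. PYGB and KRT8 also rose in both controls, by 0.65 and 0.53 in siNeg cells and by 0.33 and 0.65 in Control cells, so that for them only the size of the rise was specific. The differences of TAPBP, KRT8, WBP2, MAP2K2 and PYGB from one control, and those of TUBA1A and GPRC5A from both, were lost under 1 or more alternatives. The second probe sets of MAP2K2 (0.48, called) and GPRC5A (0.27, not called) had no difference called from either control.

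Promoters of the mitotic genes that fell are shown first because they carry the elements named above. Of the 158 specific falls 135 had a promoter in the RefSeq table (GRCh38.p14, 250 bases before to 50 after the first listed start). The CHR was searched as TTTGAA or TTCGAA and the CCAAT box as CCAAT, each on both strands. Capitals mark them in the promoters of PRC1 (chr15:90994486-90994785, minus strand), CDK1 (chr10:60778081-60778380, plus strand), SPC25 (chr2:168890381-168890680, minus strand) and NUSAP1 (chr15:41332631-41332930, plus strand).
PRC1: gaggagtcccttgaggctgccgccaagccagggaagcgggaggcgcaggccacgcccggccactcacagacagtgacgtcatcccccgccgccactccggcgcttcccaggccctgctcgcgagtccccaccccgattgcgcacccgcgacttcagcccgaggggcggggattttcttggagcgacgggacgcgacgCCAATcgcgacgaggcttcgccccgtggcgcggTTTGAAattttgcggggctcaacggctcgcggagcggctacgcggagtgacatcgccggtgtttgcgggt
CDK1: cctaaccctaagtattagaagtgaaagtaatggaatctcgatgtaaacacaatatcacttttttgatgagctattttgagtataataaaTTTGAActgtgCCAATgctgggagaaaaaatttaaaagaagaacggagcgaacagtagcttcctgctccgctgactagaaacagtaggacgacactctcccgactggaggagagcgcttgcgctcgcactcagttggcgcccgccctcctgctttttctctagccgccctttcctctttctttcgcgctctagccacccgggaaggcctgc
SPC25: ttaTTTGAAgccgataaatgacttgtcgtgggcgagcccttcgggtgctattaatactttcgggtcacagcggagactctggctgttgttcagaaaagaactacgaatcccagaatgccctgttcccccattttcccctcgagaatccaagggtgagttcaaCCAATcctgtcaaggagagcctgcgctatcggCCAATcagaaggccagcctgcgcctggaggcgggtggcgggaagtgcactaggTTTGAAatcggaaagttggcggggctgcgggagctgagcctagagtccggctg
NUSAP1: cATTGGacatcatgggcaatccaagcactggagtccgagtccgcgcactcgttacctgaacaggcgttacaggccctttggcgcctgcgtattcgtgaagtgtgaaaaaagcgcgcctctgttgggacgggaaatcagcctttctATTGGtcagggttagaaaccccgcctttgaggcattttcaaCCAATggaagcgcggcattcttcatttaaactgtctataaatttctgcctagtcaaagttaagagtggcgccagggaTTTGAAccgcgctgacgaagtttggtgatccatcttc
In PRC1 a CHR begins 20 bases before the start and a CCAAT box 53 bases before it. In CDK1 the CHR and a CCAAT box begin 161 and 150 bases before the listed start.

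A CHR was found in 35 of the 135 promoters of specific falls (25.9%), in 16 of 151 promoters of specific rises (10.6%) and in 731 of 6545 promoters of the genes tested (11.2%). In the whole table of 27305 promoters its share was 16.6%. Of the 18 specific falls on the mitotic and kinetochore lists with a promoter, 15 held a CHR (83.3%), and of the other 117 specific falls 20 did (17.1%). The lists themselves are rich in it, at 34 of 50 (68.0%) for mitosis and 14 of 24 (58.3%) for the kinetochore. The CCAAT box was found in 45.2% of the promoters of specific falls, 41.7% of those of specific rises and 38% of those of the genes tested. An E2F element, searched as TTTCCCGC or TTTGGCGC on both strands, was in 8.89% of the specific falls, 1.99% of the specific rises and 3.96% of the genes tested. A match is a run of letters and no evidence of binding.

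Many of the measured genes of the spindle checkpoint and kinetochore fell in siMPS1 cells. Of 28 measured members 15 fell (53.6%) and 1 rose (3.57%), beside 11.8% and 12.6% of all genes. In siNeg cells 1 fell and 5 rose, and in Control cells 4 fell and 1 rose. The median change was -0.47 in siMPS1 cells, -0.01 in siNeg cells and -0.14 in Control cells. Of the members 8 were specific falls and 0 specific rises (2.02% and 2.21% of all genes). Median centring gave 9 specific falls and quantile normalization 7, with 1 and 7 falls in Control cells. The 3′ to 5′ differences given above separate the same arrays, and their part in these counts was not tested.

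SPC25, a subunit of the NDC80 complex that binds spindle microtubules, read 6.36 and 6.56 in siMPS1 cells at 48 h, against 7.44 and 7.27 at 24 h. The 8 control arrays lay between 7.18 and 7.58, so SPC25 left the control range only at 48 h. Its change of -0.89 (SE 0.12, limma adjusted p = 5.21e-05) was 1.05 below that of siNeg cells and 0.93 below that of Control cells. BUB3, a checkpoint protein that docks at phosphorylated kinetochores, read 9.14 and 9.17 in siMPS1 cells at 48 h, against 9.62 and 9.57 at 24 h, below all control arrays at 48 h, and it fell by 0.44. All 4 BUB3 probe sets fell, but in the other 3 no difference from either control was called (limma, smallest adjusted p = 0.054). The specific fall of BUB3 thus rests on its brightest probe set. KNTC1, a member of the RZZ complex, fell by 0.81, and SPDL1, the adaptor known as Spindly that brings dynein to kinetochores, fell by 0.67. SPDL1 was raised by 0.39 in siNeg cells (adjusted p = 0.00113). CENPF, a large kinetochore protein, fell by 0.67, and a dim second probe set of CENPF did not pass. MIS12, which joins the inner to the outer kinetochore, fell by 0.60, but it also fell by 0.56 in siNeg and 0.50 in Control cells and so is a shared fall.

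The wider mitosis and cytokinesis list followed. Of 58 measured members 32 fell and 1 rose in siMPS1 cells, against 4 that fell and 13 that rose in siNeg cells and 16 that fell and 0 that rose in Control cells (limma, adjusted p under 0.05). In siMPS1 cells 55.2% of the members thus fell and 1.72% rose, beside 11.8% and 12.6% of all genes. Over all genes 15.6% fell and 13.6% rose in siNeg cells, and 11.6% fell and 8.0% rose in Control cells. Of the members 15 were specific falls and 0 specific rises. The median change was -0.39 in siMPS1 cells, 0.04 in siNeg cells and -0.17 in Control cells. Median centring left 31 falls in siMPS1 cells but 4 in Control cells, and quantile normalization left 32 and 15. The direction in siMPS1 cells thus held and the size of the Control fall depended on scaling. Specific falls of the list numbered 16 after median centring and 11 after quantile normalization.

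PRC1, which bundles the antiparallel microtubules of the central spindle, read 9.35 and 9.50 in siMPS1 cells at 48 h, against 10.18 and 10.11 at 24 h. In siNeg cells PRC1 read 10.25 and 10.28 at 48 h, against 10.01 and 9.93 at 24 h, and in Control cells 9.88 and 9.97 at 48 h, against 10.03 and 10.23 at 24 h. Its change was -0.72 in siMPS1 cells (SE 0.07, limma adjusted p = 2.56e-06), 0.30 in siNeg cells and -0.21 in Control cells, so the 3 treatments moved apart. CDK1, the kinase that drives entry into mitosis, read 8.98 and 8.89 in siMPS1 cells at 48 h, against 9.88 and 9.61 at 24 h, and lay between 9.21 and 9.61 on the control arrays. It was above the control arrays at 24 h and below them at 48 h. All 3 CDK1 probe sets fell, by 0.81, 1.13 and 1.12, and each change lay below those of both controls, by between 0.72 and 1.11. UBE2C, the ubiquitin-conjugating enzyme of the anaphase-promoting complex, fell by 0.75, NUSAP1, a spindle-associated protein, by 0.63, and ASPM, which focuses spindle poles, by 0.85. UBE2C also fell in Control cells, by 0.37, and ASPM in both controls, by 0.31 in siNeg and 0.37 in Control cells. Their differences from Control were lost without single arrays.

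Replication genes were called about as often as all genes in siMPS1 cells and rose in many cases in the controls. Among 59 measured members of the replication and G1/S list 10 fell and 4 rose in siMPS1 cells, whereas 30 rose and 1 fell in siNeg cells and 18 rose and 2 fell in Control cells. The siMPS1 shares were 16.9% down and 6.78% up, beside 11.8% and 12.6% of all genes. The median change was -0.01 in siMPS1 cells, 0.31 in siNeg cells and 0.16 in Control cells, and the siMPS1 change was called lower than the siNeg change for 21 members and higher for 1. TYMS, thymidylate synthase, read 10.64 and 10.66 in siMPS1 cells at 48 h, against 10.98 and 11.11 at 24 h. In siNeg cells TYMS read 11.14 and 11.06 at 48 h, against 10.66 and 10.75 at 24 h, and in Control cells 10.98 and 10.91 at 48 h, against 10.62 and 10.68 at 24 h. It fell by 0.40 in siMPS1 cells (SE 0.06, limma adjusted p = 0.000132) and was raised by 0.39 in siNeg and 0.29 in Control cells, both called.

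GINS4, a subunit of the replicative helicase, behaved alike, with a fall of 0.41 in siMPS1 cells, whose call was lost without siMPS1 24 h replicate 2 or 48 h replicate 1, and rises of 0.74 in siNeg and 0.49 in Control cells. E2F8, a repressor of the E2F family, fell by 0.64 and was a specific fall, though leaving out either siMPS1 24 h replicate 1 or siMPS1 48 h replicate 2 ended its call. RFC5, a subunit of the clamp loader, fell by 0.43, and ORC3, of the origin recognition complex, by 0.60, with neither specific on its brightest probe set. The dimmest RFC5 probe set fell by 0.63, below the siNeg change by 1.09 and the Control change by 0.98, both called. The remaining RFC5 probe set changed by -0.21 without a call, though its differences from both controls were called. ORC3 and RFC5 were below all control arrays at both times. CHAF1A, a histone chaperone of replication, was the 1 specific rise of the list, at 0.66, but its other 2 probe sets were not called, and with its probe sets averaged the difference from siNeg was -0.159 instead of 0.48.

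DNA repair genes by homologous recombination gave 4 falls and 0 rises among 28 measured members in siMPS1 cells, against 0 falls and 3 rises in siNeg cells and 0 falls and 1 rise in Control cells. The siMPS1 falls are 14.3% of the members, close to the 11.8% of all genes. FANCI, of the Fanconi anaemia pathway, read 7.73 and 7.84 in siMPS1 cells at 48 h, against 8.51 and 8.48 at 24 h, while the control arrays lay between 8.32 and 8.52. It fell by 0.71 (SE 0.08, limma adjusted p = 4.45e-06), 1 of 2 specific falls of the list. Its second probe set fell by 0.45 in siMPS1 cells, but that change did not differ from the Control change by test (adjusted p = 0.0846). ATM, the kinase of the double-strand break response, fell by 0.51 and TOPBP1, an activator of ATR, by 0.37, but their changes did not differ by test from those of the controls.

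The list of CDK inhibitors and G1 cyclins was divided, with 4 rises and 4 falls among 20 measured members in siMPS1 cells, 3 rises and 6 falls in siNeg cells and 4 rises and 4 falls in Control cells. In siMPS1 cells that is 20% each way, beside 12.6% and 11.8% of all genes. CDKN3, a phosphatase that acts on CDKs and is itself expressed late in the cycle, read 8.13 and 8.08 in siMPS1 cells at 48 h, against 8.73 and 8.82 at 24 h. In Control cells CDKN3 read 8.86 and 8.72 at 48 h, against 8.48 and 8.45 at 24 h. Its fall of 0.67 (SE 0.09, limma adjusted p = 7.67e-05) was 0.99 below the Control change. CDKN1B, the inhibitor p27, fell by 0.71 in siMPS1, 0.68 in siNeg and 0.53 in Control cells, a shared fall. CCND3, cyclin D3, rose by 0.41 in siMPS1 cells and by 0.86 in siNeg cells. CCND1, cyclin D1, rose by 0.21, and its specific call was lost under most alternatives. E2F5 fell by 1.28 in siMPS1 cells and also fell by 0.63 in siNeg and 0.76 in Control cells. Among 19 measured p53 targets 4 rose and 2 fell in siMPS1 cells, 4 rose and 8 fell in siNeg cells, and 2 rose and 4 fell in Control cells. The siMPS1 shares of these targets were 21.1% up and 10.5% down, beside 12.6% and 11.8% of all genes, so the falls were near the share of all genes. CDKN1A, the inhibitor p21 on the p53 list, was picked after its values were seen. It changed by -0.05 in siMPS1 cells and fell by 1.33 in siNeg and 1.04 in Control cells. Its siMPS1 change differed from both (limma adjusted p = 0.000369 and 0.00397). CDKN1A was not called in siMPS1 cells, so the rule does not count it as specific.

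GDF15, a secreted stress cytokine on that list, read 8.72 and 8.65 in siMPS1 cells at 48 h, against 8.02 and 8.07 at 24 h. In siNeg cells GDF15 read 6.97 and 6.76 at 48 h, against 8.09 and 8.19 at 24 h, and in Control cells 8.08 and 8.0 at 48 h, against 8.09 and 7.98 at 24 h. All 6 arrays of 24 h lay between 7.98 and 8.19, and at 48 h the treatments did not overlap, with siMPS1 cells highest and siNeg cells lowest. GDF15 rose by 0.64 in siMPS1 cells (SE 0.08, limma adjusted p = 3.98e-05) and fell by 1.27 in siNeg cells (adjusted p = 7.56e-09). GADD45B, a stress sensor, rose by 0.43 and was called lower in both controls, but its other kept probe sets did not pass in siMPS1 cells. PLK2, a polo-like kinase, rose in all 3 treatments, by 0.49, 0.43 in siNeg and 0.41 in Control cells, and TP53I3, a quinone oxidoreductase, by 0.51 with a rise of 0.38 in siNeg cells.

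**Figure D4:**
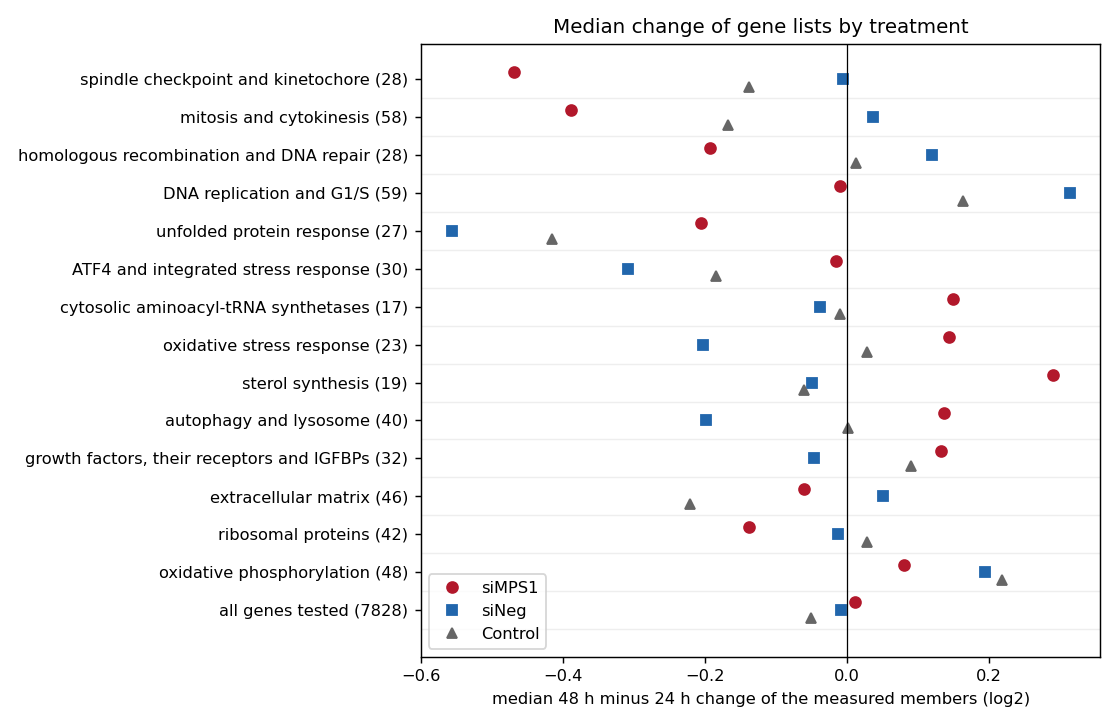
Median change (log2, 48 h minus 24 h) of the measured members of 14 gene lists and of all genes, with circles for siMPS1, squares for siNeg and triangles for Control cells, and the number of members in brackets. Medians of the kinetochore and mitosis lists in siMPS1 cells are -0.47 and -0.39, and the sterol list lies at 0.29.

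The unfolded protein response, by which cells raise chaperones when the endoplasmic reticulum is overloaded, gave more called falls than rises in every treatment and the smallest median fall in siMPS1 cells. Of 27 measured members 13 fell and 3 rose in siMPS1 cells, 20 fell and 0 rose in siNeg cells, and 17 fell and 0 rose in Control cells. The siMPS1 shares were 48.1% down and 11.1% up, the rises near the 12.6% of all genes and the falls above their 11.8%. The median change was -0.21 in siMPS1 cells, -0.56 in siNeg cells and -0.42 in Control cells. The siMPS1 change was called higher than that in siNeg cells for 15 members and than that in Control cells for 3. HERPUD1, a component of the degradation machinery of the reticulum, and ATF3, a transcription factor of the stress response, fell in all treatments, as did other genes. They are shown as examples that hold the elements marked. Capitals mark in their promoters the CCAAT box and the CARE, the C/EBP-ATF element bound by ATF4, searched as TGATGNAA on both strands (HERPUD1 chr16:56931892-56932191, plus strand, and ATF3 chr1:212565157-212565456, plus strand, both GRCh38.p14).
HERPUD1: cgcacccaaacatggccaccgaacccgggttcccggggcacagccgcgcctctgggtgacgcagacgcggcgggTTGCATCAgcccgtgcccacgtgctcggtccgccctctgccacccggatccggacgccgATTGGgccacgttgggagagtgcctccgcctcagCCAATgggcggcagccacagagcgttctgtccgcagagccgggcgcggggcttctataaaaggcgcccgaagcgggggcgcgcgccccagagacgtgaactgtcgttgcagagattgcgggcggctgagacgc
ATF3: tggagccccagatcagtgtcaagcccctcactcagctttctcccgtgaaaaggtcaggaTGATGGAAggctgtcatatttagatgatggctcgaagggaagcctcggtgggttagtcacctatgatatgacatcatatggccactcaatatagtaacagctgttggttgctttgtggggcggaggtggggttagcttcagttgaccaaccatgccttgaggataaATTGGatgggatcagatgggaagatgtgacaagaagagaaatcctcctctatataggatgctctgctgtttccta
A CARE was present in 5 of 25 promoters of the ATF4 list below (20.0%), 1 of 24 of the unfolded protein response list (4.17%) and 1.57% of those of the genes tested. The 1 promoter of the unfolded protein response list is that of HERPUD1, so it is not typical of that list. In the whole table its share was 3.67%. A CCAAT box was in 20 of the 24 unfolded protein response promoters (83.3%).

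HERPUD1 read 9.13 and 9.10 in siMPS1 cells at 48 h, against 10.13 and 10.06 at 24 h. In siNeg cells HERPUD1 read 8.32 and 8.24 at 48 h, against 10.18 and 10.06 at 24 h, and in Control cells 8.96 and 8.91 at 48 h, against 10.02 and 10.06 at 24 h. All 6 arrays of 24 h lay between 10.02 and 10.18, and siMPS1 cells were highest at 48 h. The siMPS1 fall of 0.98 (SE 0.06, limma adjusted p = 1.53e-08) was smaller by 0.86 than the siNeg fall (adjusted p = 4.57e-06), while the Control fall of 1.11 did not differ from it by test (adjusted p = 0.352). DNAJB9, a chaperone of the reticulum, fell by 1.13 in siMPS1, 1.92 in siNeg and 1.03 in Control cells, the siNeg fall being the larger by test. EDEM1, which sends misfolded glycoproteins for degradation, fell by 0.94. CALR, the chaperone calreticulin, was the 1 specific rise of the list, at 0.65. It read 8.92 and 9.09 in siMPS1 cells at 48 h, against 8.29 and 8.43 at 24 h, but the other CALR probe sets changed by 0.02 and 0.20 and were not called.

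The ATF4 and integrated stress response list includes genes of amino acid supply. It gave 5 rises and 8 falls among 30 measured members in siMPS1 cells, 5 rises and 15 falls in siNeg cells, and 2 rises and 12 falls in Control cells. Falls took 26.7% of the members in siMPS1 cells and rises 16.7%, beside 11.8% and 12.6% of all genes. The siMPS1 change was called higher than that of siNeg cells for 16 members and lower for 1. ATF3 read 6.13 and 6.21 in siMPS1 cells at 48 h, against 7.65 and 7.53 at 24 h, and fell by 1.42 (SE 0.09, limma adjusted p = 1.53e-08). It fell by 2.71 in siNeg and 1.44 in Control cells. The siMPS1 fall of ATF3 was smaller than the siNeg fall by test (limma adjusted p = 4.24e-06) and did not differ from the Control fall (adjusted p = 0.944). DDIT3, the factor CHOP, fell by 0.46 in siMPS1 cells, which was less than the falls of 1.78 in siNeg and 0.98 in Control cells by test. SLC38A2, a carrier of neutral amino acids, fell in all 3 treatments, by 0.30 in siMPS1, 0.85 in siNeg and 0.43 in Control cells.

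SLC7A5, the light chain of the leucine transporter LAT1, was the 1 specific rise of that list. It read 8.73 and 8.75 in siMPS1 cells at 48 h, against 7.90 and 7.89 at 24 h. In siNeg cells SLC7A5 read 8.51 and 8.45 at 48 h, against 8.06 and 8.08 at 24 h, and in Control cells 8.26 and 8.23 at 48 h, against 8.15 and 8.27 at 24 h. The siMPS1 arrays were lowest at 24 h and highest at 48 h, and the rise of 0.84 (SE 0.06, limma adjusted p = 9.08e-08) was specific under all alternatives run for single genes. Of 17 measured cytosolic aminoacyl-tRNA synthetases, which load amino acids onto tRNA, 8 rose and 1 fell in siMPS1 cells, 5 rose and 4 fell in siNeg cells, and 2 rose and 1 fell in Control cells. The rises in siMPS1 cells are 47.1% of the synthetases and the fall 5.88%, beside 12.6% and 11.8% of all genes. CARS1 and EPRS1, for cysteine and for glutamate and proline, rose specifically by 0.32 and 0.27, although EPRS1 lost its difference from Control under several alternatives. CARS1 lost its difference from Control with its probe sets averaged, and its second probe set changed by 0.30 without a call. AARS1, for alanine, rose by 0.52 in siMPS1 and 0.45 in siNeg cells, YARS1, for tyrosine, by 0.49, and LARS1, for leucine, fell by 0.45.

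**Figure D5:**
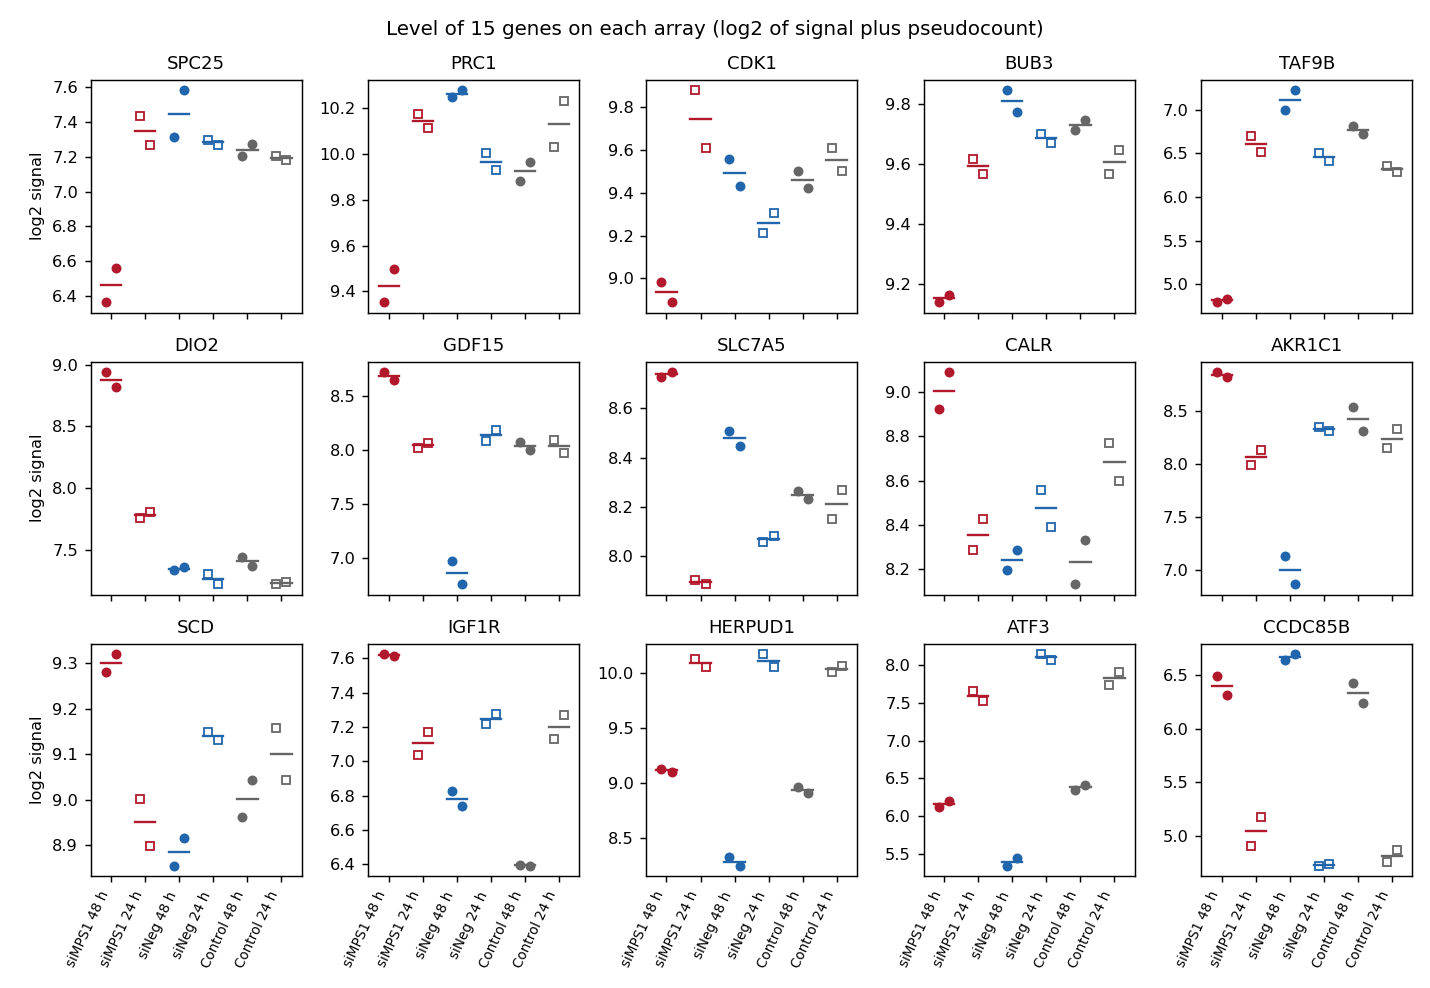
Log2 signal (with the pseudocount) of 15 genes on each of the 12 arrays, filled circles at 48 h and open squares at 24 h, with a bar at each group mean. SPC25, PRC1, CDK1 and BUB3 are lowest on the siMPS1 48 h arrays, GDF15, SLC7A5 and CALR highest there, and HERPUD1, ATF3 and CCDC85B move the same way in the 3 treatments.

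The oxidative stress list, mostly targets of the factor NRF2, gave 7 rises and 3 falls among 23 measured members in siMPS1 cells, 3 rises and 11 falls in siNeg cells, and 3 rises and 3 falls in Control cells. In siMPS1 cells 30.4% rose, beside 12.6% of all genes, and 13% fell, near the 11.8% of all genes. AKR1C1, an aldo-keto reductase, read 8.87 and 8.82 in siMPS1 cells at 48 h, against 7.99 and 8.13 at 24 h. In siNeg cells AKR1C1 read 7.13 and 6.86 at 48 h, against 8.35 and 8.31 at 24 h, so that the transfected groups moved in opposite directions. The rise of 0.78 (SE 0.11, limma adjusted p = 7.78e-05) differed from the Control change by 0.59 (adjusted p = 0.0164). That difference was lost without single arrays and with the probe sets averaged. A second AKR1C1 probe set rose by 0.57. Its change differed from the siNeg change by 1.61 (adjusted p = 0.000184) but not from the Control change (by 0.05, adjusted p = 0.917). AKR1C1 has near-identical family members whose transcripts its probe sets may share. SQSTM1, the autophagy receptor p62, rose by 0.28 and was specific under all alternatives run for single genes, with a second probe set that rose by 1.12. OSGIN1, an oxidative-stress-induced growth inhibitor, rose by 1.02 but missed the difference from Control (adjusted p = 0.0568). TXN, thioredoxin, fell by 0.26, and PGD, of the pentose phosphate pathway, fell by 0.21 in siMPS1 cells and was raised by 0.44 in siNeg and 0.31 in Control cells. The call of the PGD fall was lost under 10 of 22 alternatives (largest adjusted p 0.239), while its differences from both controls kept theirs.

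Sterol and fatty acid desaturation genes rose in siMPS1 cells without a fall. Of 19 measured members 11 rose and 0 fell (57.9% rose, beside 12.6% of all genes), against 6 rises and 5 falls in siNeg cells and 3 rises and 4 falls in Control cells, and all 19 changes in siMPS1 cells were above 0. The median change was 0.29 in siMPS1 cells, -0.05 in siNeg cells and -0.06 in Control cells. The 3 specific members, SCD, SQLE and NSDHL, numbered 2 after quantile normalization and 0 after median centring. SCD, the stearoyl-CoA desaturase, read 9.28 and 9.32 in siMPS1 cells at 48 h, against 9.0 and 8.90 at 24 h, and between 8.86 and 9.16 on the control arrays. It rose by 0.35 (SE 0.07, limma adjusted p = 0.00231), and a second probe set rose by 1.03 with no difference called against either control. MSMO1, a sterol demethylase, read 7.66 and 7.66 in siMPS1 cells at 48 h, against 7.17 and 7.28 at 24 h, while the control arrays lay between 8.52 and 8.83. MSMO1 thus rose by 0.43 and was still below every control array. DHCR7, the last enzyme of cholesterol synthesis by one route, rose by 0.77, FADS2, a fatty acid desaturase, by 0.68, and LSS, lanosterol synthase, by 0.47. SQLE, squalene epoxidase, rose by 0.25 and NSDHL, a sterol dehydrogenase, by 0.57. The SQLE rise lost its call under 7 of 22 alternatives, among them leaving out any 1 of the 4 siMPS1 arrays, and the NSDHL difference from Control was lost under 12.

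The lysosome and autophagy list gave more called rises than falls in siMPS1 cells and more falls than rises in siNeg cells. Of 40 measured members 14 rose and 3 fell in siMPS1 cells, 6 rose and 17 fell in siNeg cells, and 6 rose and 9 fell in Control cells. The siMPS1 shares were 35% up and 7.5% down, beside 12.6% and 11.8% of all genes. The difference from siNeg was called for 16 members, all higher, and 5 were specific rises. CTSA, a lysosomal carboxypeptidase, read 8.64 and 8.58 in siMPS1 cells at 48 h, against 7.89 and 7.98 at 24 h, and rose by 0.67 (SE 0.10, limma adjusted p = 0.000118). It was above all control arrays at 48 h, but its rise did not differ from the siNeg rise of 0.31 by test (adjusted p = 0.0923). TPP1, a lysosomal peptidase, rose by 0.59 and CTSB, cathepsin B, by 0.35, both specific on their brightest probe set and not on the others. NPC2, which carries cholesterol out of the lysosome, rose by 0.36 in siMPS1 cells and by 0.25 in each control, and it was below all control arrays at both times. WIPI1, an early autophagy protein, fell by 0.67, less than in siNeg cells by test, where it fell by 1.81, and WIPI2 rose by 0.28 with its call lost under many alternatives.

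Extracellular matrix genes went both ways in all treatments, with 9 rises and 16 falls among 46 measured members in siMPS1 cells, 11 rises and 12 falls in siNeg cells, and 4 rises and 18 falls in Control cells. Rises made up 19.6% and falls 34.8% of the members in siMPS1 cells, beside 12.6% and 11.8% of all genes. COL4A1, a chain of basement membrane collagen, read 7.71 and 7.66 in siMPS1 cells at 48 h, against 8.47 and 8.40 at 24 h, while the control arrays lay between 7.46 and 7.84. It was above every control array at 24 h and within their range at 48 h, and its fall of 0.75 (SE 0.08, limma adjusted p = 2.87e-06) was specific. A dimmer COL4A1 probe set changed by -0.41 and was not called. PLAUR, the urokinase receptor, likewise was above the controls at 24 h only, and it fell by 0.53, with a difference from Control that was lost under 11 of 22 alternatives. COL11A1, a fibrillar collagen chain, rose by 0.54 with 2 agreeing probe sets and was specific under all alternatives run for single genes. PLOD1, a collagen lysyl hydroxylase, rose by 0.57 and ended above the controls, with its difference from siNeg lost without any single siMPS1 array. COL5A1 fell by 1.01 in siMPS1 and 1.01 in Control cells and by 0.33 in siNeg cells, and LOX, lysyl oxidase, fell by 1.08, 1.37 in siNeg and 0.85 in Control cells. A dimmer LOX probe set fell by 1.29 in siMPS1 cells, below the siNeg change by 0.50 and the Control change by 0.82, both called.

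Growth factors, their receptors and IGF-binding proteins gave 11 rises and 5 falls among 32 measured members in siMPS1 cells, 8 rises and 7 falls in siNeg cells, and 6 rises and 10 falls in Control cells. The siMPS1 shares were 34.4% up and 15.6% down, beside 12.6% and 11.8% of all genes. IGF1R, the receptor of insulin-like growth factors, read 7.63 and 7.61 in siMPS1 cells at 48 h, against 7.04 and 7.17 at 24 h. In siNeg cells IGF1R read 6.83 and 6.74 at 48 h, against 7.22 and 7.28 at 24 h, and in Control cells 6.40 and 6.39 at 48 h, against 7.13 and 7.27 at 24 h. It rose by 0.51 in siMPS1 cells (SE 0.08, limma adjusted p = 0.000133) and fell by 0.46 and 0.80 in siNeg and Control cells. A second IGF1R probe set rose by 0.47 in siMPS1 cells, but its change differed by test neither from the siNeg change (by 0.07, adjusted p = 0.833) nor from the Control change (by 0.39, adjusted p = 0.112), so the opposite direction rests on the brightest probe set. HBEGF, a ligand of the EGF receptor, was above the controls at both times and rose by 0.76, with its difference from Control lost under 8 of 22 alternatives. The second HBEGF probe set changed by 0.37 and was not called. EGFR, the receptor itself, rose by 0.53 on its brightest probe set and changed by -0.11 on the next, and with its probe sets averaged its difference from siNeg was -0.102 instead of 0.56. IGFBP5 rose by 0.50, with 0.53 in siNeg cells. A dimmer IGFBP5 probe set rose by 0.81, above the siNeg change by 1.58 and the Control change by 0.85, both called. IGFBP7 fell by 0.48, with a fall of 0.36 in siNeg cells and a rise of 0.24 in Control cells.

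A set of 41 genes (0.524%) was called one way in siMPS1 cells and the opposite way in both controls, 21 higher (0.268%) and 20 lower (0.255%) in siMPS1 cells. IGF1R, TAF9B and GINS4, given above, are among them. MKNK2, a kinase of the translation factor eIF4E, read 9.66 and 9.66 in siMPS1 cells at 48 h, against 9.34 and 9.16 at 24 h. In siNeg cells MKNK2 read 8.91 and 8.94 at 48 h, against 9.57 and 9.48 at 24 h, and in Control cells 9.03 and 8.94 at 48 h, against 9.39 and 9.42 at 24 h. It rose by 0.41 in siMPS1 cells (SE 0.07, limma adjusted p = 0.000199) and fell by 0.60 in siNeg and 0.42 in Control cells. RRBP1, a ribosome-binding protein of the reticulum, rose by 0.48, a call lost without any 1 of 3 siMPS1 arrays, against falls of 0.54 in siNeg and 0.59 in Control cells. MRPL42, a protein of the mitochondrial ribosome, fell by 0.40 against rises of 0.55 in siNeg and 0.57 in Control cells.

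Changes common to the 3 treatments numbered 314 (4.01%), 108 rises (1.38%) and 206 falls (2.63%). MMP10, a matrix metalloproteinase, read 5.39 and 5.59 in siMPS1 cells at 48 h, against 7.20 and 7.21 at 24 h, and fell by 1.72, and it fell by 2.85 in siNeg cells and fell by 1.95 in Control cells. With ATF3, DNAJB9, HERPUD1 and LZTFL1, a regulator of ciliary trafficking that fell by 0.99, it was among the 5 largest shared falls. CCDC85B, a coiled-coil protein, read 6.49 and 6.31 in siMPS1 cells at 48 h, against 4.91 and 5.18 at 24 h, and rose by 1.35, with rises of 1.93 in siNeg and 1.51 in Control cells. The other leading shared rises were PADI3, a peptidylarginine deiminase, by 1.10, CARHSP1, a calcium-regulated RNA-binding protein, by 0.78, ACP6, an acid phosphatase of lipids, by 0.73, and TPM2, a tropomyosin, by 0.73. Over the 7828 genes the siMPS1 change correlated at 0.33 with the siNeg change and 0.25 with the Control change, and the siNeg and Control changes at 0.36. Genes are not independent replicates, and these contrasts share no arrays.

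The other lists held few specific genes, and their siMPS1 shares are given beside the 12.6% of all genes that rose and the 11.8% that fell. Ribosomal protein genes gave 0 rises and 11 falls (26.2%) among 42 in siMPS1 cells, 1 rise and 1 fall in siNeg cells and 2 rises and 0 falls in Control cells. They held 1 specific fall, and median centring gave 12 falls and 6 specific falls, whereas quantile normalization gave 6 falls and 1 specific fall. Of 48 oxidative phosphorylation genes 14 rose (29.2%) and 2 fell (4.17%) in siMPS1 cells, 21 rose and 0 fell in siNeg cells, and 26 rose and 0 fell in Control cells. Immediate early and AP-1 genes gave 4 rises (14.3%) and 6 falls (21.4%) among 28 in siMPS1 cells, 2 rises and 14 falls in siNeg cells, and 0 rises and 11 falls in Control cells. Interferon-induced genes gave 4 rises (13.3%) and 5 falls (16.7%) among 30 in siMPS1 cells, 1 rise and 9 falls in siNeg cells, and 5 rises and 2 falls in Control cells. Apoptosis regulators gave 3 rises (11.1%) and 3 falls (11.1%) among 27 in siMPS1 cells, 3 rises and 4 falls in siNeg cells, and 2 rises and 3 falls in Control cells. The shares of the interferon and apoptosis lists in siMPS1 cells are near those of all genes. Integrin genes gave 7 rises (38.9%) and 2 falls (11.1%) among 18 in siMPS1 cells, 8 rises and 3 falls in siNeg cells, and 2 rises and 2 falls in Control cells. Of 20 heat shock chaperones 4 rose (20%) and 5 fell (25%) in siMPS1 cells, 3 rose and 5 fell in siNeg cells, and 2 rose and 2 fell in Control cells. Of 32 hypoxia and glycolysis genes 8 rose (25%) and 2 fell (6.25%) in siMPS1 cells, 8 rose and 7 fell in siNeg cells, and 2 rose and 5 fell in Control cells.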

How the data were processed

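The study measured U251 cells on 18 arrays, 9 groups of 2 (siMPS1, siNeg and Control at 6, 24 and 48 h). The deposited values are log2 signals, which the authors made with MAS5 per the submitters' processing notes (version not given in the sources used here). The log base was read from the values: 2 raised to them has a 2% trimmed mean between 100.122 and 100.134 on every array. Deposited values ran from -5.83 to 13.0, and 9.38% were below 0. The labels name neither the siRNA sequences nor the transfection reagent.

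Of 22277 probe sets 62 are array controls. Of the other 22215, 19064 name exactly 1 gene in the platform annotation, 1043 name several and 2108 none, and 19052 matched RefSeq by gene identifier. Signals were taken back to the linear scale, 3 was added (the 20th percentile of the signals) and log2 taken. The dimmest 40% by mean were dropped and the brightest probe set was kept per gene, leaving 7828 genes. A model of 9 group means over the 18 arrays was fitted in limma 3.58.1 under R 4.3.3 (intensity trend, 9 residual and 8.57 prior degrees of freedom, two-sided tests, Benjamini-Hochberg within each contrast). Values of a gene's other probe sets come from a separate fit of the 11824 probe sets kept, with p adjusted over these. The number of arrays limits the precision. Tested on simulated data with 100 changed genes of each size among 7828, the 48 h minus 24 h contrast in siMPS1 recovered 56% of changes of 0.5 log2 and 90% of changes of 1 log2, with 13 false calls. The rule for specific genes recovered 18% and 64%, with 0 false calls. In the simulation only the siMPS1 48 h arrays changed and the controls did not, unlike in the data. These values therefore do not give the recovery or the false calls of the data.

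Replicate numbers come from the labels. Same-numbered arrays of different groups did not deviate together (correlations between -0.136 and 0.103), so they were not paired. Genes were named by a rule: TTK, the 10 largest specific rises and falls, the 5 largest shared and 3 largest opposite changes each way (mean log2 of at least 6 and arrays of the 2 times not overlapping), and, within a list, the 4 members of smallest p and up to 4 specific ones. The members, the 32 lists and the rule were chosen with earlier results of these data known. CDKN1A was added outside the rule after its values were seen and was not repeated under the alternatives. Alternatives covered pseudocounts of 1 and 11, quantile normalization, median centring, other filters and probe set rules, no trend, a replicate block, only the compared groups, a 2-fold minimum and leaving out each array. The 2-fold minimum and the count of probe sets were run for the numbers of genes called, not for single genes. One gene that the rule names is not reported here. Promoters are from RefSeq, build GRCh38.p14.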

Additional observations from a re-analysis of the deposited data

Results flagged for a closer look

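Of 7828 genes, 1234 had a siMPS1 change that differed by limma's test from the siNeg change, 1136 one that differed from the Control change, and 331 differed from both in the direction of a called siMPS1 change. They are given again because the same interval brought different changes in different treatments, and the named genes among the 331 follow with the difference of their changes, siMPS1 minus siNeg, in log2. Among mitotic, kinetochore, replication and repair genes, the siMPS1 change was higher in CHAF1A (0.478). Among mitotic, kinetochore, replication and repair genes, the siMPS1 change was lower in GINS4 (-1.15), SPDL1 (-1.07), SPC25 (-1.05), CDK1 (-1.04), PRC1 (-1.02) and E2F8 (-0.948). It was also lower in CDKN3 (-0.909), TYMS (-0.787), UBE2C (-0.779), KNTC1 (-0.664), CENPF (-0.625), FANCI (-0.625) and BUB3 (-0.562). It was also lower in ASPM (-0.54) and NUSAP1 (-0.533). Among genes of stress, p53, amino acid and tRNA charging lists, the siMPS1 change was higher in AKR1C1 (2.12), GDF15 (1.92), CALR (0.882), GADD45B (0.747), SQSTM1 (0.619), EPRS1 (0.504) and CARS1 (0.501). It was also higher in SLC7A5 (0.435). Among genes of stress, p53, amino acid and tRNA charging lists, the siMPS1 change was lower in PGD (-0.657). Among sterol, lysosomal, matrix and growth factor genes, the siMPS1 change was higher in IGF1R (0.977), HBEGF (0.901), NSDHL (0.86), TPP1 (0.714), WIPI2 (0.611), SQLE (0.606) and SCD (0.604). It was also higher in CTSB (0.562), EGFR (0.558), COL11A1 (0.478) and PLOD1 (0.411), and, outside these groups, in the G1 cyclin gene CCND1 (0.259). Among sterol, lysosomal, matrix and growth factor genes, the siMPS1 change was lower in COL4A1 (-0.758) and PLAUR (-0.494). Among the other named genes, the siMPS1 change was higher in IL7R (1.05), RRBP1 (1.02), DIO2 (1.01), MKNK2 (1.01), MVP (0.946), WBP2 (0.941) and GPRC5A (0.814). It was also higher in TUBA1A (0.754), TAPBP (0.653), MAP2K2 (0.596), KRT8 (0.509) and PYGB (0.45). Among the other named genes, the siMPS1 change was lower in TAF9B (-2.45), CNTN1 (-1.72), TMEM230 (-1.22), NTM (-1.04), MRPL42 (-0.951), NHLRC2 (-0.892) and BTG3 (-0.55). It was also lower in THAP10 (-0.506) and WWC3 (-0.478). All the genes named here also differed in the same direction from Control cells (adjusted p under 0.05), and both siMPS1 48 h arrays carry the 3′ to 5′ difference given above, whose part was not tested.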

How the results depend on the processing

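Of 219 single-gene results (the siMPS1 change and its differences from the controls), 4524 of 4812 repeats kept their direction and call, 286 lost the call and 2 reversed. The reversals came with averaged probe sets, in the difference from siNeg of CHAF1A (-0.159) and EGFR (-0.102). Of 60 specific genes named, 20 kept all 3 calls under every alternative run for single genes, which leaves out the 2-fold minimum and the count of probe sets. Specific genes numbered 729 against the mean change of both controls, 807 when called in siMPS1 and in neither control, 548 when probe sets were counted and 217 when the fit held the compared groups alone. Counting probe sets gave 1869 differences from siNeg. With a 2-fold minimum there were 82 calls in siMPS1, 175 in siNeg, 76 in Control, 165 and 118 for the differences from siNeg and Control, 3 specific and 8 shared genes. Leaving out 1 array gave 1168 to 1963 calls in siMPS1, 1461 to 2348 in siNeg, 805 to 1592 in Control, 850 to 1201 and 687 to 1158 for the differences from siNeg and Control, 192 to 305 specific and 217 to 284 shared genes, and a TTK change between -0.729 and -0.209. The siMPS1 and specific counts were lowest without siMPS1 48 h replicate 2, the siNeg count without siNeg 48 h replicate 1 (1461) and without siNeg 24 h replicate 1 (1498). The Control count fell without each of its arrays (976, 805, 976 and 928), and the difference from Control without Control 24 h replicate 2 (687). The replicate block, whose numbers do not pair the arrays, gave 1896 calls in siMPS1 and 331 specific genes. In these fits fewer arrays or genes enter, and any other cause was not tested. Probe sets near background limit what can be seen, since the 40% dimmest were left out.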
